A study of Arabidopsis thaliana with 34 samples.

Results

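The regions described here are 368 islands of the repressive histone mark H3K9me2 in the chromosome arms of Arabidopsis thaliana, out of 3314 H3K9me2 regions in the nuclear genome. Overlapping peaks of the 2 H3K9me2 ChIP-seq lists from wild type were merged, merged regions with a peak of both lists were kept, and a region was called an arm island when its midpoint lay outside 12 to 18 Mb of chromosome 1, 1 to 7 Mb of chromosome 2, 11 to 17 Mb of chromosome 3, 1 to 6 Mb of chromosome 4 and 9 to 16 Mb of chromosome 5. The other 2946 regions lay inside these limits and are called pericentromeric regions below. Because the wild type H3K9me2 lists chose the islands, their values in those lists are a description and were not tested.

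The study mapped chromatin proteins by ChIP-seq in plants of the Col-0 ecotype, in 9 pairings of an antibody with a genotype, each with 2 libraries that have their own peak list. NRPE1, the largest subunit of RNA polymerase V, was mapped in wild type (WT), in *h1* and in ZF108-DMS3 plants. The linker histone H1 was mapped in WT, *nrpe1* and ZF108-DMS3 plants. H3K9me2 was mapped in WT and *h1*, and the methyl-DNA reader SUVH1 in *h1* alone. The *h1* plants were homozygous for mutations in 2 H1 genes (*h1.1-1* and *h1.2-1*), the *nrpe1* plants carried *nrpe1-11*, and ZF108-DMS3 was a single homozygous transgenic line with DMS3, a partner of Pol V, fused to 3xFLAG and a zinc finger in a Col-0 WT background. SUVH1 carried a 3xFLAG tag from a transgene placed in *h1*, and no SUVH1 list from plants with H1 was used here. The labels call the tissue floral, whereas the protocols describe pooled seedlings 10 to 12 days old. The study describes the NRPE1 libraries in WT and *h1* and the H1 libraries in WT and *nrpe1* as biological replicates. For the other pairings the sources used here do not say, so the difference between their 2 libraries may be technical. A p-value below ranks the observed arrangement of libraries among all possible ones and does not measure the spread between plants.

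In plant heterochromatin H3K9me2 and non-CG DNA methylation maintain each other, since the methyltransferases CMT2 and CMT3 bind H3K9me2 and the histone methyltransferase KYP binds methylated DNA, with CHG as the preferred site of CMT3 (H is A, C or T). RNA-directed DNA methylation (RdDM) is a second pathway in which small RNAs pair with transcripts of Pol V and direct the methyltransferase DRM2, mostly at young or short transposable elements and at the edges of long ones in the arms. H1 binds the linker DNA between nucleosomes and is dense in pericentromeric heterochromatin, so arm islands are places where the mark of one pathway lies in the chromosomal territory of the other. SUVH1 binds methylated DNA, chiefly at RdDM sites.

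The sequences of 5 stretches of 200 bases, each centred on the H3K9me2 summit of an island in WT replicate 1, show the kind of DNA that carried the mark. They were read from the TAIR10.1 assembly of RefSeq, which has the same nuclear chromosome lengths as TAIR10, and the capitals mark CHG sites (CAG, CTG, CCG or CGG, which cover both strands, with overlapping sites in CCGG). The first pair comes from the widest island of chromosome 1, a member of a repeat family, and from the widest island of all, near the start of chromosome 2. The next pair comes from the islands of at least 1 kb with the largest rises of NRPE1 coverage in *h1*, and the last from an intron of RPP7, a disease resistance gene.
Repeat family, chr1:2795751-2795950, + strand: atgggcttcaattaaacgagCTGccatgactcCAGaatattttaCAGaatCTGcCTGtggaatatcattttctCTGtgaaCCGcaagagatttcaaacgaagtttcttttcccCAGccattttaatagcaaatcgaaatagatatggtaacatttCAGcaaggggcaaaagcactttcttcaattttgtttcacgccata
Start of chromosome 2, chr2:28524-28723, + strand: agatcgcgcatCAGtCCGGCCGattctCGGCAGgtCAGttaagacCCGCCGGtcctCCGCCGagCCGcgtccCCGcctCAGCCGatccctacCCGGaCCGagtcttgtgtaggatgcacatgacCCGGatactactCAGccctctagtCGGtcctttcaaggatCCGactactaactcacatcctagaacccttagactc
AT3G28915, chr3:10921383-10921582, + strand: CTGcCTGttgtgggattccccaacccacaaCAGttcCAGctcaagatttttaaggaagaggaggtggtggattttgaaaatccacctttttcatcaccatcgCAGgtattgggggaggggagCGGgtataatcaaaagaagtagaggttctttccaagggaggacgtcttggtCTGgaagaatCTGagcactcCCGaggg
AT2G21460, chr2:9188987-9189186, + strand: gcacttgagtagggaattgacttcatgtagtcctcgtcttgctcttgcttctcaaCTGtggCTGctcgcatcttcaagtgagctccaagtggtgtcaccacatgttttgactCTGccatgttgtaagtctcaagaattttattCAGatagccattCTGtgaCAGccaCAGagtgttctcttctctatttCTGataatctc
RPP7 intron, chr1:21749362-21749561, + strand: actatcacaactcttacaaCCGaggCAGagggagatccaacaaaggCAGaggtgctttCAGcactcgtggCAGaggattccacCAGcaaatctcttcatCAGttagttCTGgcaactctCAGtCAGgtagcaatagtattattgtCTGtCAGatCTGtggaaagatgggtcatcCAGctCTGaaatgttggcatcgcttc

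The stretch from the start of chromosome 2 was the richest in CHG, with 24 sites and 59.5% GC, and the stretches from the repeat family, AT3G28915, AT2G21460 and RPP7 held 9, 9, 8 and 15 sites. The repeat family stretch occurred 5 times in the nuclear genome, each time within an island of the family. The stretch from chromosome 2 occurred 3 times, and 2 of the 4 islands of its own sequence family held it. The other 3 stretches occurred once. Cut into windows of 200 bases, the islands held a median of 9 CHG sites and 61.2% of 2945 windows held 8 or more, against a median of 6 and 32.1% in 1-kb tiles of the arms outside any H3K9me2 region. CHG sites are frequent everywhere, and at least 1 was in 99.7% of island windows and 97.7% of tile windows.

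The islands as called were mostly small, and many lay close to another. With H3K9me2 peaks within 500 bp merged, 223 islands were left, so their number depends on the merging and neighbours were not always separate regions. The islands as called held 627 kb, which was 0.703% of the bases of the arms and 4.16% of the bases of all H3K9me2 regions. There were 96 on chromosome 1, 82 on chromosome 2, 72 on chromosome 3, 61 on chromosome 4 and 57 on chromosome 5. Widths ran from 148 to 20516 bp with a median of 1112 bp, 102 islands were at least 2 kb wide, and the 18 of at least 5 kb held 22.5% of the bases. The limits of the pericentromere were near for many of them, since 148 islands lay within 1 Mb of a limit, while the median distance was 1.97 Mb. Just outside a limit, the closest islands were chr2:7005612-7006209, 5.91 kb beyond the limit at 7 Mb, and chr1:18006534-18007120, 6.83 kb beyond the limit at 18 Mb. Their mean NRPE1 coverage (the share of bases under peaks) was 100% and 23.5% in WT. The closest region just inside, chr2:6990315-6992228, lay 8.73 kb within the limit and had a mean of 55.4%.

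Most island DNA was annotated as pseudogene. Pseudogenes, the class in which RefSeq places most transposable element genes of Arabidopsis, held 70.9% of island bases, against 47.7% in pericentromeric regions and 1.56% in arm tiles. Coding sequence held 4.88%, introns 4.43% and the space between genes 18.3%. Bases in both a protein-coding gene and a pseudogene were counted with the protein-coding gene. In all, 187 pseudogenes and 55 protein-coding genes overlapped an island, and 35 islands lay whole within a protein-coding gene. Of the protein-coding genes, 6 had transposon or reverse transcriptase words in their product name. GC content had a median of 41.9% in islands, 38.0% in pericentromeric regions and 36.6% in tiles, and the density of CHG sites a median of 42.5, 30.3 and 31 per kb.

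Island DNA was also repetitive. The median island had 58.4% of its 50-base words (50-mers) occurring once in the genome on either strand, against 96.2% in pericentromeric regions and 100% in tiles. Copies of 25.5% of island 50-mers were present in another arm island, and of 25.6% in a pericentromeric region. When islands that share at least 50% of the 50-mers of the smaller one were joined, 23 families held 78 islands, and 290 islands belonged to none. The largest family had 15 islands and 57.0 kb on 4 chromosomes. The authors kept only reads that map uniquely without mismatch, yet NRPE1 peaks in *h1* covered 88.2% and 85.8% of the 219.6 kb of island bases outside any unique 50-mer, so values are also given for islands by the share of unique 50-mers.

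In WT, NRPE1 peaks already covered about as much of the islands as H1 peaks did, and in *h1* they covered nearly all of the island DNA. NRPE1 covered 58.9% and 47.9% of island bases in WT (replicates 1 and 2), 90.7% and 88.5% in *h1*, and 3.60% and 9.12% in ZF108-DMS3. Coverage of H1 was 47.7% and 55.2% in WT, 52.7% and 56.2% in *nrpe1*, and 52.2% and 54.5% in ZF108-DMS3. SUVH1 covered 44.7% and 34.5% in *h1*. H3K9me2 itself covered 55.1% and 94.5% in WT, compared with 59.9% and 61.9% in *h1*, a gap of 39.4 points between the WT lists and of 2.07 points between the *h1* lists. The NRPE1 libraries of the 3 genotypes did not overlap, and those of H1 did.

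**Figure D1:**
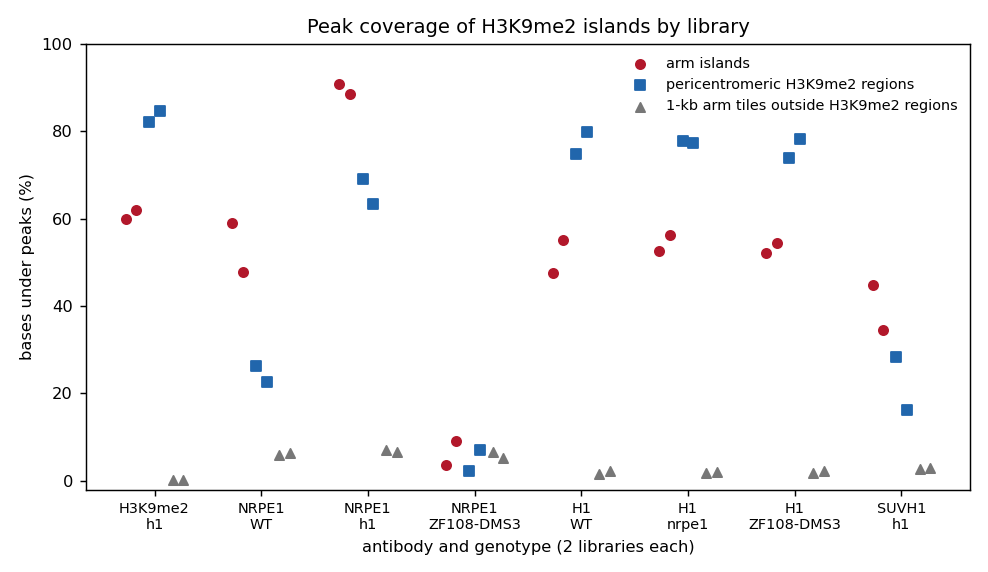
Share of bases under peaks (y axis, %) for 8 of the 9 antibody and genotype pairings (x axis; H3K9me2 in WT, which chose the islands, is not drawn), with 1 point per library and marks for arm islands, pericentromeric regions and arm tiles outside H3K9me2 regions. On islands NRPE1 stood at 47.9% to 58.9% in WT, at 88.5% to 90.7% in *h1* and at 3.60% to 9.12% in ZF108-DMS3, while all 6 H1 libraries stood between 47.7% and 56.2%.

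Islands and pericentromeric regions differed in the share of bases under each protein more than in how often they held a peak. H1 peaks of both WT libraries were at 78.8% of islands and 81.1% of pericentromeric regions, and NRPE1 peaks at 76.9% and 70.2%. SUVH1 peaks of both libraries were at 232 of 368 islands and 1765 of 2946 pericentromeric regions. Regions of at least 5 kb held 22.5% of island bases and 77.9% of pericentromeric bases. The part of width in the coverage values was not tested. NRPE1 in WT covered 26.2% and 22.7% of pericentromeric bases, 32.7 and 25.2 percentage points below the islands of the same library. H1 in WT went the other way, with 74.8% and 79.9% of pericentromeric bases and islands lower by 27.1 and 24.7 points. SUVH1 covered 28.3% and 16.2% of pericentromeric bases, 16.4 and 18.2 points below the islands. With 2 libraries the exact sign-flip test cannot give a two-sided p below 0.5, which each of these 3 differences reached. In arm tiles NRPE1 covered 5.98% and 6.47%, SUVH1 2.82% and 2.91%, and H1 1.59% and 2.25%, so the islands stood above the surrounding arm for each of them.

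Peaks on islands ranked high among the NRPE1 peaks of their library. The best NRPE1 peak of an island had a median percentile by −log10 p of 80.7 and 75.8 within its own WT list and of 92.4 and 91.6 within its own *h1* list, against 59.6 and 57.7, and 74.7 and 74.5, for pericentromeric regions. For H1 in WT the order was the opposite, at 64.2 and 72.2 on islands and 79.7 and 84.2 in pericentromeric regions. The median fold of the best NRPE1 peak was 4.51 and 5.82 in WT, compared with 10.0 and 11.8 in *h1*. Coverage rose while the number of NRPE1 peaks on islands went from 729 and 718 in WT to 467 and 477 in *h1*, and the median per island with a peak went from 2 to 1.

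NRPE1 coverage of the islands was 36.2 percentage points higher in *h1* than in WT, going from 53.4% ± 7.82 to 89.6% ± 1.61 (SD, n = 2 libraries). The change was larger than the gap between the WT libraries (11.1 points) or between the *h1* libraries (2.27 points), and the exact two-sided permutation p was 0.333, the smallest that 2 libraries against 2 can give. At single islands, coverage in both *h1* libraries was above both WT libraries in 269 of 368, against 71.6% of all 3314 H3K9me2 regions and 4.56% of 88273 arm tiles. Coverage in both *h1* libraries was below both WT libraries in 0 islands, against 2.56% of all regions. The share of islands that were higher, like the rise itself, was thus near that of all H3K9me2 regions and far above the arm around them.

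Most islands had NRPE1 already in WT. Peaks of both WT libraries were present at 283 islands, of 1 at 51 and of neither at 34, and in *h1* the counts were 352, 3 and 13. A peak in both *h1* libraries and neither WT library was found at 20 islands, against 8.18% of all regions, and the reverse at 0 islands, against 0.272%. The first count depended on the lists, since it was 51 without WT replicate 1, 38 without WT replicate 2 and 44 with an equal number of peaks per list. The gained islands were narrow (276 to 1519 bp, median 540.5 bp), and NRPE1 in *h1* covered between 55.6% and 100% of each, with a median of 94.9%. H1 peaks of both WT libraries lay on 18 of the 20, SUVH1 peaks of both libraries on 1, and at 12 most bases were pseudogene. The extent of NRPE1 changed at more islands than its presence, since the number of islands fully under NRPE1 peaks went from 63 and 39 in WT to 286 and 264 in *h1*.

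**Figure D2:**
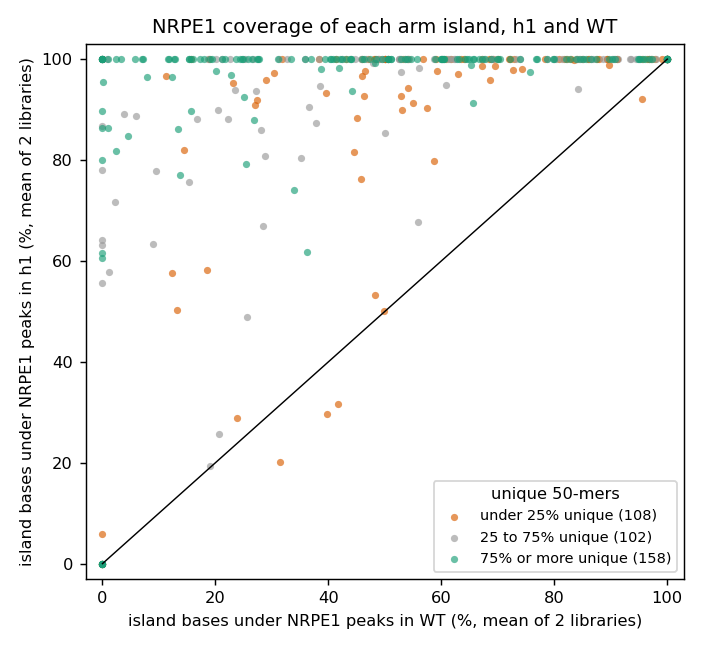
NRPE1 coverage of each of the 368 islands in WT (x axis) and *h1* (y axis), both in % of bases as means of 2 libraries, with colours for the share of unique 50-mers. Most points lie on or near the upper edge whatever their WT value, and the few on the diagonal well below it include the wide islands at the start of chromosome 2 and, at the origin, the 13 islands without NRPE1 in any WT or *h1* list.

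Among islands of at least 1 kb, the largest rises were at pseudogenes almost without NRPE1 in WT. At chr3:10920596-10922468, 1873 bp whole within the pseudogene AT3G28915, NRPE1 covered 2.03% and 0% in WT, against 100% and 100% in *h1*, while H1 in WT covered only 0% and 10.3%. At chr2:9188405-9190120, within AT2G21460, NRPE1 covered 0.117% and 0% in WT, compared with 90.9% and 100% in *h1*. The best NRPE1 fold in *h1* was 12.5 and 17.4 at the first and 9.45 and 10.0 at the second. Neither had a SUVH1 peak in either library, although both were under NRPE1 in the same genotype, and H1 covered 74.9% and 86.5% of the second in WT.

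Comparable rises occurred in an intron, at an island that also overlaps the pseudogene AT4G22415, and in other pseudogenes. At chr4:11823712-11825531, 1820 bp in an intron of AT4G22410, annotated as a tri-snRNP-associated-like protein, NRPE1 covered 12.7% and 3.02% in WT, against 96.7% and 96.3% in *h1*, with H1 in WT on 86.0% and 85.2%. At chr5:16700033-16701360, within AT5G41755, coverage was 23.2% and 0% in WT, compared with 100% and 100% in *h1*. The island at AT4G10460, chr4:6471417-6472486, rose by 93.0 points. These 5 islands were chosen for the size of their rise among islands of at least 1 kb, so their values are a description. Below 1 kb, 11 islands had larger rises, of 99.2 to 100 points.

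The mean rise of islands was 5.69 points below that of pericentromeric regions (36.2 against 41.9 points, exact permutation p = 0.333, the smallest possible, 2 libraries a group). The difference was smaller than the largest gap between replicates of the same contrast, which was 7.53 points, and it changed sign with the processing. It was +2.26 points among regions as wide as the middle of the islands, +1.11 points without islands that share sequence with another island, and +0.95 points with lists of equal length. Whether islands gained more or less than pericentromeric regions was therefore not settled by these lists. The level reached in *h1* was higher on islands in each library, 90.7% and 88.5% against 69.2% and 63.5% in pericentromeric regions. This level was not recomputed among regions of like width. It was 76.7% and 72.2% on islands of at least 5 kb. The median region was covered to 100% in both libraries on islands, against 87.9% and 84.4% in pericentromeric regions.

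The rise differed among kinds of island. By width it was 37.0 points below 0.5 kb, 44.7 points from 0.5 to 1 kb, 46.3 points from 1 to 2 kb, 37.8 points from 2 to 5 kb and 19.2 points at 5 kb or more. By position it was 34.4 points within 1 Mb of a pericentromeric limit, 39.5 points from 1 to 3 Mb and 35.8 points beyond 3 Mb. The class within 1 Mb (236.6 kb) includes 61.7 kb of islands below 100 kb on chromosome 2, where the difference was 3.66 points. The classes were not recomputed without those islands, so no trend with distance was read from these values. Islands that were mostly pseudogene rose by 37.0 points, those between genes by 36.6 points and those in protein-coding genes by 31.0 points. By chromosome the rise ran from 29.4 points on chromosome 2 to 51.0 points on chromosome 4. The islands below 100 kb also count in the value of chromosome 2, and the widest of them in the class of 5 kb or more.

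The islands nearest the start of chromosome 2 stood apart. The short arm of that chromosome begins with a nucleolus organiser region of tandem ribosomal RNA genes, and 17 islands with 61.7 kb lay below 100 kb, among them 1 over the rRNA genes AT2G01010 and AT2G01020. NRPE1 covered 34.7% and 23.1% of these islands in WT, against 36.1% and 29.1% in *h1*, so that the genotypes overlapped, and H1 in WT covered 86.9% and 82.9%. The 12 islands from 100 kb to 1 Mb did not share this, with NRPE1 on 66.9% and 66.4% in WT, against 100% and 100% in *h1*, and H1 in WT on 48.9% and 53.6%. Over all 351 islands other than those below 100 kb, the mean of NRPE1 was 39.8 points higher in *h1* than in WT, against a difference of 3.66 points below 100 kb. The limit of 100 kb was chosen after these values were seen, and no test was made of it. At the rRNA genes the libraries differed more than the genotypes, since on chr2:1114-7486 NRPE1 covered 0% and 96.7% in WT, against 9.84% and 96.8% in *h1*.

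Among the islands below 100 kb, the widest of all, chr2:28323-48838 (20516 bp over the pseudogenes AT2G01029, AT2G01031 and AT2G01034), had NRPE1 on 32.1% and 9.13% of its bases in WT, compared with 38.0% and 13.5% in *h1*. H1 in WT covered 96.6% and 99.3% of it, and H3K9me2 in *h1* 92.9% and 98.7%. Its neighbour chr2:13627-27907 was one of the few with a lower mean in *h1*, going from 53.6% and 9.47% to 34.5% and 5.76%, and so was chr2:58557-60772, from 61.2% and 18.1% to 43.8% and 15.6%. In both, the WT libraries differed by more than the change. These islands and chr2:48968-49717 shared sequence, and the 4 together went from 41.3% and 9.60% to 36.3% and 10.7%.

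Sequence repetition moved with NRPE1 and with the agreement between WT libraries. Among 158 islands with at least 75% unique 50-mers, NRPE1 covered 50.3% and 52.1% in WT, against 96.5% and 95.7% in *h1*, a rise of 45.0 points. Among 102 islands with 25% to 75% the values were 51.5% and 41.0% in WT, compared with 85.4% and 79.0% in *h1*. Among 108 with less than 25% they were 76.3% and 48.2% in WT, against 87.8% and 87.0% in *h1*, a rise of 25.1 points. The WT libraries thus differed by 28.1 points on the most repetitive islands, where replicate 1 was higher at 82 and replicate 2 at 10, and by 1.79 points on the most unique, where the counts were 62 and 67. Each class had the smallest possible exact permutation p of 0.333, and the part of mapping in these values was not tested.

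**Figure D3:**
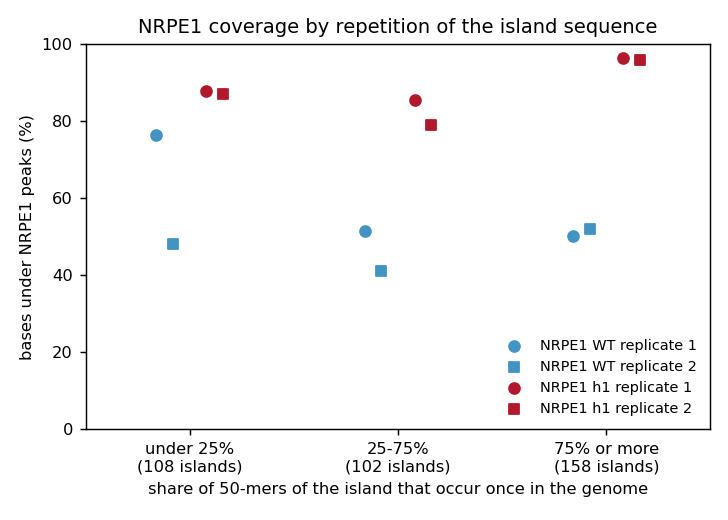
NRPE1 coverage (y axis, % of bases) of islands in 3 classes of the share of 50-mers that occur once in the genome (x axis), with 1 point per library. The WT libraries are at 76.3% and 48.2% on the 108 most repetitive islands and at 50.3% and 52.1% on the 158 most unique, and all *h1* libraries lie between 79.0% and 96.5%.

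The largest sequence family, of 15 islands on chromosomes 1, 2, 3 and 5, was almost fully under NRPE1 in WT replicate 1. NRPE1 covered 97.6% and 70.3% of its 57.0 kb in WT and 99.7% and 99.4% in *h1*. SUVH1 covered 83.2% and 67.4% and H1 in WT 47.6% and 53.6%. Its widest members were chr1:2788855-2800299 (11445 bp, AT1G08735 and AT1G08740), with NRPE1 on 98.5% and 68.5% in WT, and chr5:18122674-18132134 (9461 bp), where SUVH1 covered 92.4% and 91.5%. Its islands share sequence, so they are not separate observations. The 290 islands in no family went from 52.2% and 48.5% to 94.3% and 92.4%.

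The widest islands of chromosomes 3 and 4 were intermediate. At chr3:2812640-2818845, over AT3G09170, NRPE1 covered 88.2% and 49.0% in WT, compared with 98.0% and 93.8% in *h1*, with H1 in WT on 57.4% and 58.3%. At chr4:6530353-6536662, over AT4G10580, NRPE1 covered 41.0% and 16.5% in WT, against 89.8% and 71.9% in *h1*, with H1 in WT on 64.4% and 73.1%. In both islands the *h1* libraries were above both WT libraries.

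H1 in WT divided the islands into a large and a small class. Both WT libraries had H1 peaks at 290 islands, 1 at 37 and neither at 41. Of the islands with H1, 230 of 290 (79.3%) were mostly pseudogene, and they had a median width of 1307 bp. Those without H1 were narrower, with a median of 601 bp, and only 7 of 41 (17.1%) were mostly pseudogene, while 18 lay between genes and 16 in protein-coding genes. The best H3K9me2 peak in WT was similar, with a median fold of 2.46 and 2.65 with H1 and 2.29 and 2.39 without.

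The rise of NRPE1 was larger where H1 had been. On islands with H1 in both libraries it covered 59.1% and 47.3% in WT, compared with 91.4% and 88.9% in *h1*, and on islands with H1 in neither 54.5% and 44.5% in WT, against 74.3% and 73.2% in *h1*. The rise was 36.9 points with H1 and 24.2 points without, a difference of 12.7 points, larger than the gaps between replicates of that contrast (1.86 and 1.40 points), with an exact permutation p of 0.333, the smallest possible. Of the 41 islands with H1 in neither, 10 had no NRPE1 peak in any WT or *h1* list, against 1 of the 290 with H1 in both. Such islands add bases without any rise, and the difference was not recomputed without them. The size of this difference depended on which islands were kept. It was 3.11 points among islands of at least 1 kb, 4.58 points among islands built from stricter H3K9me2 peaks, 23.7 points among islands with at least 75% unique 50-mers and 23.3 points without islands that share sequence with another. Leaving out H1 WT replicate 2 brought it to 7.16 points. Over the 368 islands, Spearman's rho between H1 in WT and the change of NRPE1 was 0.25, and between H1 and NRPE1 in WT −0.14, where the points share libraries and neighbouring islands share sequence.

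The classes also held different numbers of islands with H3K9me2 in *h1*. Of the 290 islands with H1 in both WT libraries, 238 had H3K9me2 peaks in both *h1* libraries and 14 in neither. Of the 41 without H1, 12 had them in both and 22 in neither. An overlap of 1 bp counted as a peak, and both kinds of peak were more frequent on wider islands. Of 72 islands under 0.5 kb, 40 had H1 in both WT libraries and 30 had H3K9me2 in both *h1* libraries. From 2 to 5 kb these counts were 80 and 79 of 84. In the tandem copies on chromosome 1 described below, 8 islands had H3K9me2 in neither *h1* library. The part of width and of shared sequence in this contrast was not tested. In all, 272 islands (73.9%) had a peak in both *h1* libraries, 53 (14.4%) in 1 and 43 (11.7%) in none, close to the 71.5%, 16.7% and 11.9% of pericentromeric regions. Since the islands were chosen for a WT peak, a lower count in *h1* is what the choice itself favours, and no test was made.

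**Figure D4:**
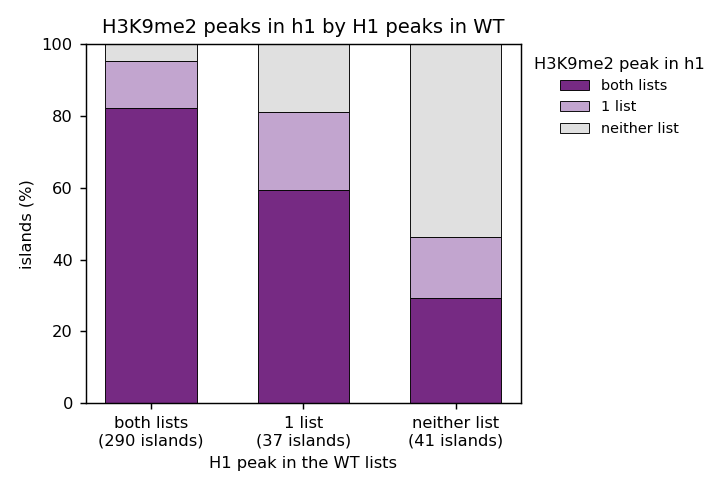
Share of islands (y axis, %) with H3K9me2 peaks in both, 1 or neither of the *h1* libraries, for islands grouped by H1 peaks in both, 1 or neither of the WT libraries (x axis, with the number of islands). Of the islands without H1 in WT, 53.7% had no H3K9me2 peak in *h1*, against 4.83% of those with H1 in both libraries. The median width of these classes was 601 and 1307 bp.

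A single place accounted for 14 of the 41 islands without H1. Between bases 8766889 and 8830569 of chromosome 1, 15 islands lay in tandem copies of a stretch with glutamine amidotransferase and uncharacterized genes, and in 6 of the islands most bases were protein-coding gene. H1 in WT covered 10.2% and 13.0% of their 23.5 kb, and H3K9me2 in *h1* 21.1% and 18.1%. NRPE1 covered 75.2% and 50.7% in WT, compared with 94.7% and 93.8% in *h1*. SUVH1 peaks of both libraries were at 9 of the 15. The median share of unique 50-mers in these islands was 0%, and most of them share sequence, so they are not separate observations. Only uniquely mapping reads had been kept, and the part of mapping in these values was not tested.

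NRPE1 and H1 also differed in where along an island they lay. On the 102 islands of at least 2 kb, NRPE1 in WT covered 70.2% and 63.7% of the outer 0.5 kb on each side and 61.0% and 46.6% of the body between. H1 in WT covered 39.8% and 43.9% of the ends and 54.1% and 60.9% of the body, and SUVH1 56.6% and 47.5% of the ends and 43.7% and 32.6% of the body. NRPE1 was thus higher at the ends and H1 higher in the body in each WT library. Pericentromeric regions of at least 2 kb had the same order, so it is not particular to islands. There NRPE1 in WT covered 37.7% and 38.5% of the ends and 24.2% and 19.5% of the body. H1 in WT covered 52.5% and 60.2% of these ends and 80.2% and 84.9% of the body. NRPE1 also covered 69.1% and 65.4% of the 0.5 kb just outside the islands in WT, where H1 covered 24.8% and 29.2%. Part of this flank lay under WT H3K9me2 peaks itself (14.2% and 29.7%), as did 27.6% and 48.3% of the next 0.5 kb. The island ends followed WT replicate 2 more than replicate 1, whose H3K9me2 peaks covered 93.7% and 45.6% of the outer 0.5 kb.

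In *h1* the body filled. NRPE1 covered 94.0% and 94.0% of the ends and 88.2% and 84.7% of the body, and without the islands below 1 Mb on chromosome 2 it covered 97.7% and 96.7% of the ends and 98.1% and 96.0% of the body. The pattern in WT was also present among the 50 islands with at least 75% unique 50-mers, at 66.6% and 69.2% of the ends and 54.7% and 55.3% of the body, and in *h1* these had 98.4% and 97.8%, and 98.5% and 97.4%. SUVH1, measured in *h1*, covered 57.3% and 47.8% of their ends and 35.6% and 26.1% of their bodies, although NRPE1 in the same genotype was even along them.

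**Figure D5:**
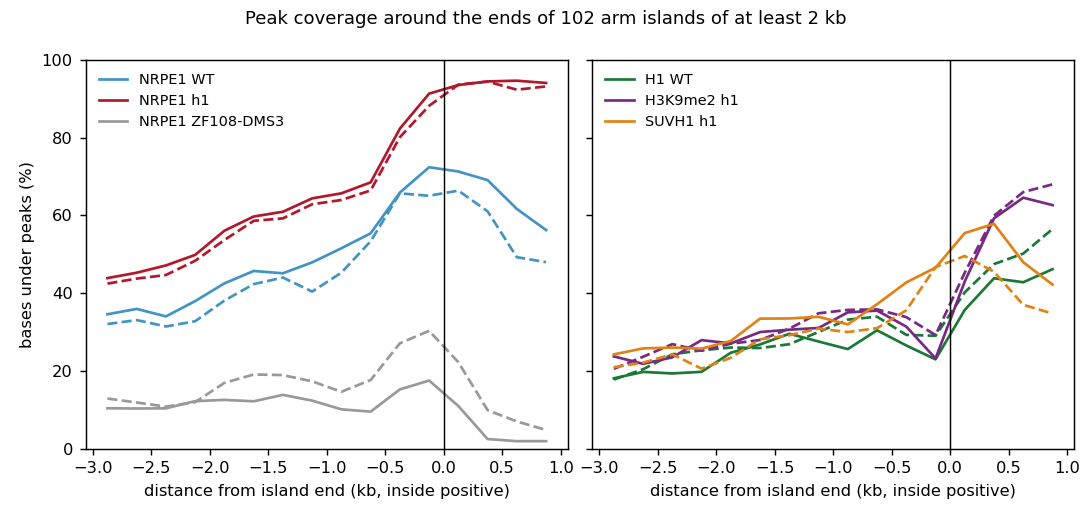
Share of bases under peaks (y axis, %) against distance from the nearest end of 102 islands of at least 2 kb (x axis, kb, inside positive), for NRPE1 and for H1, SUVH1 and H3K9me2, with solid lines for replicate 1 and dashed lines for replicate 2. NRPE1 in *h1* went from 43.9% and 42.5% in the bin at −2875 bp to 91.3% and 88.2% just outside the end and stayed high inside.

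SUVH1 peaks in *h1* lay mostly on islands that already had NRPE1 in WT. Both SUVH1 libraries had a peak at 232 islands, 1 at 67 and neither at 69. Where both WT libraries had NRPE1, 215 of 283 islands had SUVH1 in both libraries and 24 in neither, and where neither WT library had NRPE1 the counts were 1 and 27 of 34. Of the 352 islands with NRPE1 in both *h1* libraries, 232 had SUVH1 in both and 55 in neither. Over 368 islands, rho with SUVH1 was 0.68 for NRPE1 in WT and 0.38 for NRPE1 in *h1*, given as a description. NRPE1 in *h1* was at or near full coverage on most islands, which leaves little range for a correlation. A SUVH1 list in plants with H1 was not used here, so the effect of H1 on SUVH1 was not measured.

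Taking peaks in both libraries of a pairing as presence, the commonest state was NRPE1 in WT and *h1*, H1 in WT, H3K9me2 in *h1* and SUVH1 in *h1* together, at 146 islands. The next, with SUVH1 in 1 library, had 31.

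In ZF108-DMS3 plants, where the zinc finger fusion brings the Pol V machinery to sites outside its usual targets, NRPE1 covered little of the islands, with a peak at 75 and 150 of the 368. Coverage fell by 47.0 points from WT to 6.36% ± 3.90 (SD, n = 2 libraries), with an exact permutation p of 0.333, the smallest possible, and gaps between libraries of 11.1 and 5.52 points. Coverage was below both WT libraries at 272 islands, against 65.2% of all H3K9me2 regions, and above both at 2, against 1.36%. Peaks present in both WT libraries were absent from both ZF108-DMS3 libraries at 136 islands, against 26.4% of all regions, and 0 islands gained a peak, against 0.513%. The ZF108-DMS3 lists were shorter, at 18173 and 20358 peaks against 25522 and 24915 in WT, with more of them in the arms (14696 and 12258 against 8716 and 9001), and arm tiles were covered to 6.56% and 5.23%, close to WT.

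The islands with NRPE1 in ZF108-DMS3 had higher NRPE1 folds in WT than those without. The 74 islands with a peak in both libraries had a median best fold in WT of 7.29 and 11.9, a median width of 1781 bp, and SUVH1 in both *h1* libraries at 72. The 217 with a peak in neither had 3.14 and 3.25, 905 bp, and SUVH1 in both at 92. On the islands of at least 2 kb the remaining NRPE1 lay outside, on 16.4% and 28.7% of the adjacent 0.5 kb, against 6.74% and 16.1% of the ends and 2.51% and 7.26% of the body.

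H1 on islands differed between genotypes by less than the WT libraries differed from each other. It was 51.4% ± 5.29 in WT, 54.4% ± 2.53 in *nrpe1* and 53.3% ± 1.60 in ZF108-DMS3 (SD, n = 2 libraries each), differences of +3.02 points (exact permutation p = 0.667) and +1.91 points (exact permutation p = 1), while the WT libraries lay 7.48 points apart. Without WT replicate 1 the differences were −0.72 and −1.83 points. At single islands, H1 in *nrpe1* was above both WT libraries at 81, against 15.1% of all regions, and below both at 35, against 12.7%. In ZF108-DMS3 it was above at 65, against 11.5%, and below at 36, against 13.9%.

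Whole peaks of H1 rarely came or went. In *nrpe1*, 2 islands gained a peak, against 0.392% of all regions, and 4 lost one, against 1.63%. In ZF108-DMS3, 3 gained one, against 0.392%, and 4 lost one, against 1.51%. H1 peaks in both libraries were present at 290 islands in WT, 296 in *nrpe1* and 293 in ZF108-DMS3.

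Of 20 loci listed for RdDM and transposon biology, 19 lay in the arms and 4 had an island within 1 kb. RPP7 (AT1G58602) had 2 islands, both whole within an intron, at chr1:21747318-21750322 and chr1:21750755-21753276. Both also overlap the annotated pseudogene AT1G58561. NRPE1 covered 93.6% and 100% of the first and all of the second in WT and all of both in *h1*, SUVH1 covered all of both, and H1 in WT covered 24.1% and 23.2% of the first and 29.5% and 41.1% of the second. FWA, SDC, IBM1, ROS1 and the retrotransposon Evade had no island. Among the listed copies of ONSEN, a heat-activated Copia element, AT1G48710 had 3 islands and AT1G58140 and AT3G59720 had 1 each, and NRPE1 in *h1* covered all of these 5 islands. At AT3G59720, chr3:22063192-22063451, the WT libraries stood at 100% and 23.5%.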

How the data were processed

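The authors aligned ChIP-seq reads to TAIR10 with Bowtie2 2.1.0, kept uniquely mapping reads without mismatch, removed duplicates with SAMtools and called peaks in each library with MACS2 2.1.1. The control used for peak calling is not given in the sources used here. Of the 34 libraries, 18 peak lists were used, and the 16 libraries of H3 ChIP-seq and bisulfite sequencing were not used here. Each deposited list gives peak positions, the fold enrichment over background and −log10 values of p and q. The deposited score column and summit offset came from the peak caller, and only the summit was used, to place sequences. The lists hold no reads, so depth is unknown and no interval was computed.

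Peaks on the 5 nuclear chromosomes were analysed with Python 3.11.15, NumPy 2.4.6, SciPy 1.17.1, pandas 2.3.3 and NetworkX 3.6.1, and plotted with Matplotlib 3.10.9. Coverage is the percent of bases under peaks, and an overlap needed 1 bp. An island was called higher or lower when both libraries of one genotype lay above or below both of the other, and gained or lost when a peak was in both libraries of one and neither of the other. Background values came from all H3K9me2 regions and from 1-kb arm tiles. Genotypes were compared by exact permutation of libraries, two-sided. Islands named in the text were the widest of each chromosome, among islands of at least 1 kb the 5 largest rises and 3 largest falls of NRPE1, and those within 1 kb of listed loci; the tandem copies on chromosome 1, the sequence families, the gained islands and the start of chromosome 2, with its limit of 100 kb, were described after their values were seen. The islands, lists and tests were chosen with earlier results of these data known. Interval counting was tested on simulated data. Alternatives were stricter lists, lists of equal length, other definitions of arms and members, wider merging, and leaving out each library.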

Additional observations from a re-analysis of the deposited data

How the results depend on the processing

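The rise of NRPE1 coverage in *h1*, its fall in ZF108-DMS3 and the difference between islands with and without H1 kept their direction under every alternative tried. SUVH1 coverage is a level in *h1* without a comparison, so only its range is given. The rise ran from 35.0 to 51.7 points and from 30.7 to 41.7 points with a library left out, and the fall from −53.8 to −35.3 and from −52.6 to −41.5 points. The difference between islands with and without H1 ran from 3.11 to 29.1 points, and from 7.16 to 13.7 points with a library left out, and SUVH1 coverage from 33.8% to 43.3%, and from 34.5% to 44.7%. With a library left out, the H1 difference ran from −0.721 to 6.76 points in *nrpe1* and from −1.83 to 5.65 points in ZF108-DMS3. The rise of islands minus that of pericentromeric regions was positive with arms taken as 100-kb windows of under 10% H3K9me2 (10.9 points), with an equal number of peaks per list (0.948), within the interquartile range of island widths (2.26) and without islands that share sequence (1.11), and ran from −9.46 to −1.92 points with a library left out. The cause was not tested.

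The count of islands that gained NRPE1 was 35 when the lists read out were limited to −log10 q of 3 or more, 44 with equal numbers of peaks and 42 with when 0.5 of the shorter interval had to overlap. With other sets of islands it was 113 with 100-kb windows, 10 from H3K9me2 peaks past the same limit, 8 with peaks within 500 bp merged, 3 at 1 kb or more, 10 at 1 Mb or more from the limits, and 12 with at least 75% unique 50-mers. It ran from 20 to 51 with a library left out, reaching 51 without WT replicate 1 and 38 without WT replicate 2. The count with H3K9me2 in both *h1* lists was 608 with 100-kb windows, 178 merged, 177 at 1 kb or more, 169 at 1 Mb or more and 112 with at least 75% unique 50-mers, and ran from 297 to 300 with a library left out. These sets held 872 islands with 100-kb windows, 249 from stricter H3K9me2 peaks and 223 merged. They held 197 at 1 kb or more, 220 at 1 Mb or more and 158 with at least 75% unique 50-mers. The counts therefore differ in part by construction, but the shares differed too. Gained islands were 113 of 872 and 3 of 197, against 20 of 368. Islands with H3K9me2 in both *h1* lists were 608 of 872 and 177 of 197, against 272 of 368. The shares over all H3K9me2 regions were not recomputed for these sets.

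With the replicate block the differences cannot change, because the mean of 2 paired differences equals the difference of the means. They were 36.2 and −47.0 points for NRPE1 and 3.02 and 1.91 points for H1. The other 2 were −5.69 points between islands and pericentromeric regions, and 12.7 points between islands with and without H1. The exact sign-flip p was 0.5 for all but H1 in ZF108-DMS3 (p = 1), and 0.5 is the smallest possible with 2 pairs. Replicate deviations over the 368 islands correlated at 0.35 for NRPE1 in *h1*, 0.11 for NRPE1 in ZF108-DMS3, −0.10 for H1 in *nrpe1* and 0.04 for H1 in ZF108-DMS3, and nothing states that the numbers pair the libraries. The alternatives on the start of chromosome 2, on unique 50-mers and on shared sequence were chosen after seeing the data. Peak lists hold no depth, so differences in sequencing depth between lists were not corrected, coverage depends on the caller's threshold, and 2 libraries a group cannot give a p below 0.333.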

Other observations

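The 13 islands without an NRPE1 peak in any WT or *h1* list differed from the rest in annotation. At 9 of them most bases were in a protein-coding gene, and 1 was mostly pseudogene. H1 peaks were in neither WT library at 10, H3K9me2 peaks in neither *h1* library at 7, and SUVH1 peaks in neither library at 12. They were narrow, from 218 to 1150 bp with a median of 426 bp, and their median share of unique 50-mers was 76.2%.

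Several lay side by side. Near the start of chromosome 2, chr2:73061-74207, chr2:75336-76212 and chr2:77166-77591 covered parts of AT2G01060, a myb-like transcriptional regulator, and AT2G01070, a seven-transmembrane receptor family gene. Near the start of chromosome 4, chr4:8271-8709, chr4:9155-9473 and chr4:9895-10294 lay in BRCA2(IV) (AT4G00020), a homologue of a DNA repair gene, and chr4:10524-10928 in SD3 (AT4G00026), a subunit of the mitochondrial inner membrane translocase. On chromosome 1, chr1:24273465-24274417 and chr1:24275161-24276310 lay at UBQ13 (AT1G65350), a ubiquitin gene. Each of these had a WT H3K9me2 peak in both libraries, as the choice of islands requires.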
